A study of Mus musculus with 24 samples.

Results

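The 12 libraries described here are the 6 with the most and the 6 with the least RNA of 3 olfactory bulb genes, out of 24 libraries labelled prefrontal cortex. All 24 were ranked by a bulb score, the mean of log2(normalised read count + 1) of Cdhr1, Doc2g and Eomes. The 6 highest are called bulb-high, the 6 lowest bulb-low, and the remaining 12 the middle libraries. Because these values chose the libraries, the contrast of bulb-high with bulb-low is given as a description with no test. Tests were made only in the 12 middle libraries, which that contrast does not use, and on the score between the labelled arms and sexes.

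The samples came from C57BL/6J mice at postnatal day 40, 3 females and 3 males in each of 4 arms. WT mice on vehicle were compared with mice heterozygous for Dyrk1a, labelled HT and named Dyrk1a+/I48X, that received vehicle, fluoxetine, an antidepressant that blocks serotonin reuptake, or lithium, used against bipolar disorder. No dose or duration was used here. Libraries carry the name of their arm, sex and replicate number. Since the labels do not tie each library to an animal of its own, a p-value here speaks only for the spread among these samples, part of which may be technical.

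The olfactory bulb lies directly in front of the frontal cortex. Its mitral and tufted cells are the glutamatergic output neurons. They receive the axons of olfactory sensory neurons in the glomeruli and send their own axons to olfactory cortex. Most other bulb neurons are GABAergic granule and periglomerular cells, which are renewed by neuroblasts that migrate in from the subventricular zone. Olfactory ensheathing glia wrap the sensory axons in the outermost layer. Cdhr1 encodes a cadherin-related protein, Doc2g a C2-domain protein and Eomes (Tbr2) a T-box transcription factor, and all 3 are used as markers of mitral and tufted cells.

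The score genes were read at high levels in the bulb-high libraries and at low levels, down to 0 for Eomes, in the bulb-low ones. Cdhr1 (chromosome 14, 37077857 to 37098347 on GRCm38) stood at 6060 to 8456 normalised read counts, median 7210, in the 6 bulb-high libraries and at 36.9 to 580, median 212, in the 6 bulb-low libraries. Doc2g (chromosome 19, 4003313 to 4007005) stood at 4631 to 6972, median 5455, and at 54.4 to 189, median 148. Eomes (chromosome 9, 118478212 to 118486132) stood at 1237 to 2136, median 1585, and at 0 to 21.8. Every bulb-high library was above every middle and bulb-low library for each of the 3 genes. The middle libraries ranged from 463 to 3396 for Cdhr1, from 148 to 2219 for Doc2g and from 4.09 to 603 for Eomes. At their low end they overlapped the bulb-low libraries for each of the 3 genes. Doc2g overlaps the predicted gene Gm49405 on the same strand, so reads could be shared between them.

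**Figure D1:**
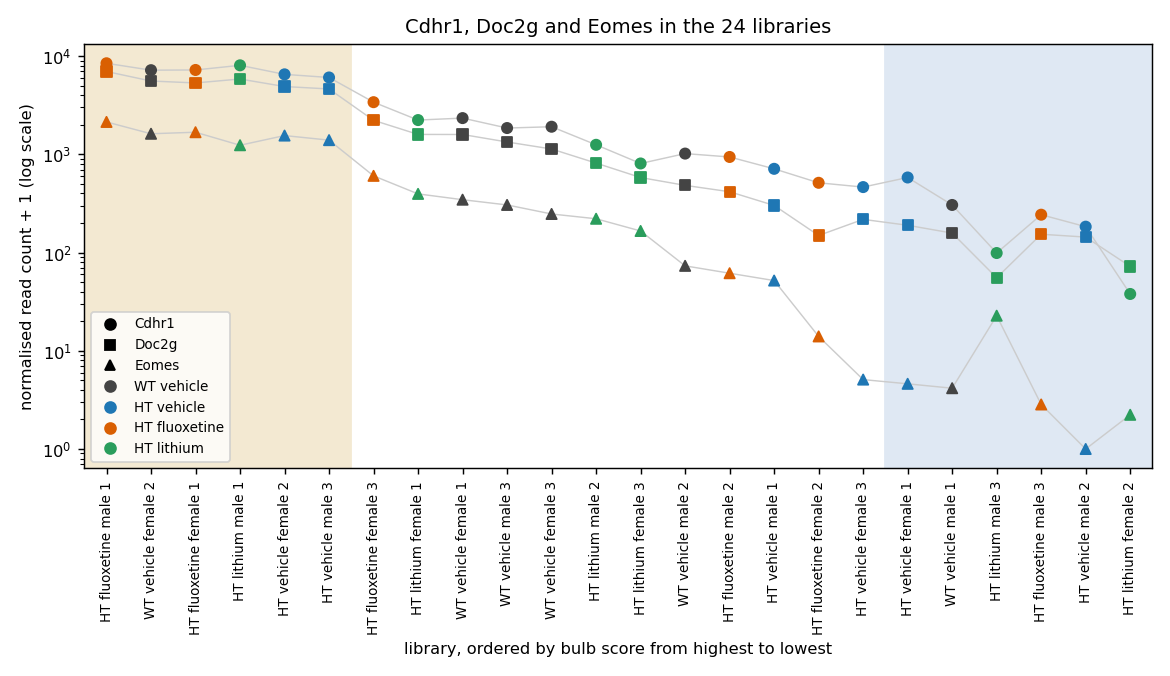
Normalised read count + 1 (log scale) of Cdhr1, Doc2g and Eomes in each of the 24 libraries, ordered by bulb score, with colour for the arm and shading for the 6 bulb-high (left) and 6 bulb-low (right) libraries. The 3 genes stay high in the first 6 libraries and drop through the middle, and Eomes reaches 0 in HT vehicle male 2.

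The bulb score was 11.73 to 12.29 in the bulb-high libraries and 4.19 to 6.318 in the bulb-low ones. At the upper edge HT vehicle male 3 scored 11.73 and the next library, HT fluoxetine female 3, scored 10.69. At the lower edge HT vehicle female 3, just outside, scored 6.324 and HT vehicle female 1, just inside, scored 6.318, so the 2 are nearly tied. The bulb-high set holds 2 HT fluoxetine, 1 HT lithium, 2 HT vehicle and 1 WT vehicle libraries, 3 of them female. The bulb-low set holds 1 HT fluoxetine, 2 HT lithium, 2 HT vehicle and 1 WT vehicle libraries, 2 of them female. The labels name 2 batches, P40_L1 with 17 libraries and P40_L2 with 7, and 1 bulb-high and 2 bulb-low libraries are from P40_L2. That batch holds all lithium libraries and 1 of HT fluoxetine. Within the bulb-low set the P40_L2 libraries had the lowest Cdhr1, 36.9 and 97.9 against 182 to 580 in the 4 of P40_L1, while the highest Eomes of the set, 21.8, was in HT lithium male 3 of P40_L2. The recovered depth was 25213094 to 31080891 reads in the bulb-high libraries and 24133344 to 31798406 in the bulb-low ones.

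The promoters of the score genes, and of Th, the gene of the rate-limiting enzyme of dopamine synthesis in periglomerular cells, are shown because these genes differ together between the sets. The sequences are from RefSeq on GRCm38.p6, 5′ to 3′, and end at the RefSeq start or before any GENCODE exon of the same gene within the window. For Th the RefSeq start lies inside the GENCODE gene span given for it below, so the annotations differ on where this gene begins. Capitals mark matches to 4 motifs that were chosen after the sequences had been seen.
Cdhr1, chr14:37098348-37098597, minus strand: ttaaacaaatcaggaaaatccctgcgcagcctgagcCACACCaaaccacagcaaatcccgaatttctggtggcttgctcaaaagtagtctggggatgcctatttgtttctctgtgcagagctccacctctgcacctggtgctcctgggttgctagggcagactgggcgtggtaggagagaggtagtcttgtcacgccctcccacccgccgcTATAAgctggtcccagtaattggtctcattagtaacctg
Doc2g, chr19:4003135-4003312, plus strand: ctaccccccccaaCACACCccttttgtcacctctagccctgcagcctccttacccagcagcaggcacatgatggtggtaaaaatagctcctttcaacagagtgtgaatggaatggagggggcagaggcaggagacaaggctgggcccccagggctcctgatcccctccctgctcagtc
Eomes, chr9:118477939-118478188, plus strand: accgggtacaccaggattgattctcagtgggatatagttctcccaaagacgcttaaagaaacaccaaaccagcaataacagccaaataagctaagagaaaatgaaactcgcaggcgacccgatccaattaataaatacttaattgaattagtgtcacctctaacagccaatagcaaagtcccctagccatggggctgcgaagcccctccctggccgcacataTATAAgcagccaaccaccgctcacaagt
Th, chr7:142900015-142900245, minus strand: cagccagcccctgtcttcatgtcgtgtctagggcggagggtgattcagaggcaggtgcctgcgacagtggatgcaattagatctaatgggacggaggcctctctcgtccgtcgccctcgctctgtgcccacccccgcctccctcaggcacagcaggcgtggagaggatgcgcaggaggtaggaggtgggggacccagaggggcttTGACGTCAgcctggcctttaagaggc
The motifs, searched on both strands, were the T-box core GGTGTG, the homeodomain core TAATTA, the cAMP response element TGACGTCA and TATAA. No match overlapped another. The T-box core was found, on the opposite strand, 214 bases before the RefSeq start of Cdhr1 and 237 before that of Doc2g. TATAA was found 39 bases before the start of Cdhr1 and 28 before that of Eomes. The cAMP response element was found 45 bases before the start of Th. TAATTA was not found in these windows. Of 32851 mouse promoters, cut to the 250 bases before the start, 16.3% hold the T-box core, 4.84% TAATTA, 1.55% the cAMP response element and 22.8% TATAA. A match describes the letters only.

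Across all other genes, the bulb-high libraries differed from the bulb-low ones mainly by genes that were higher, with far larger differences than any gene that was lower. Compared were 16822 genes with a mean of at least 10 over all 24 libraries, so a gene can pass this filter through its bulb-high values. Of these, 655 were higher in the bulb-high set. This means that all 6 of its libraries were above all 6 bulb-low libraries and the mean log2(value + 1) differed by at least 1. By the same rule 94 genes were lower. These are 3.89% and 0.559% of the genes compared. Without the size condition, 2930 genes (17.4%) did not overlap with bulb-high above and 3135 (18.6%) with bulb-high below, and the median difference over all genes was 0.0043. A difference of at least 3 was reached by 107 higher genes and by 0 lower genes, and 26 higher genes reached 5. The shares describe libraries chosen by their own values, and nothing further is read from them.

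The same 12 libraries were also split by arm, with 1 or 2 libraries on each side, which is a description and no separate evidence. In WT vehicle the library on the bulb-high side is female and the one on the bulb-low side male. Of the 16822 genes, 434 (2.58%) were higher by at least 1 in every one of the 4 arms and 22 (0.131%) were lower. Among the 655 higher genes 425 did so, and among the 94 lower genes 18. For these genes the absence of overlap fixes the direction in every arm, so only the size could vary.

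Several of the 12 genes with the largest difference were at or near 0 in the bulb-low libraries, among them Ms4a15, Foxd3, Hephl1, Mgam, Kcnk15 and Tbx21. Ms4a15, a membrane protein of the MS4A family (chromosome 19, 10978307 to 10993250), stood at 1021 to 1721, median 1214, in the bulb-high libraries and at 0 to 2.11, median 0, in the bulb-low ones, a log2 difference of 9.90. Its means were 1309 ± 292 (SD, n = 6) and 0.501 ± 0.865 (SD, n = 6). Foxd3, a forkhead transcription factor of the neural crest lineage, stood at 72.2 to 154, median 135, against 0 in all 6 bulb-low libraries, which makes it at least 239-fold higher with a floor of 3 reads over the bulb-low group. Neither Ms4a15 nor Foxd3 overlapped between the sets. The 12 middle libraries lay below the bulb-high ones, at 7.80 to 529 for Ms4a15 and 0 to 53.4 for Foxd3.

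S100a5, a calcium-binding protein of olfactory sensory neurons, had a log2 difference of 7.87, from 279 to 1154 in the bulb-high libraries against 0 to 17.4. Tbx21 (T-bet), a T-box transcription factor of mitral and tufted cells, had one of 7.62. The next were Frmd7, a FERM-domain gene known in humans for congenital nystagmus (6.29), Hephl1, a copper ferroxidase (6.26), and Dnah11, an axonemal dynein heavy chain (6.13). They were followed by Mgam, the maltase-glucoamylase gene (6.04), Kcnk15, a potassium channel subunit (5.88), and Adamts19, a secreted metalloprotease (5.84). Omp, olfactory marker protein (5.82), and Scgn, the calcium-binding protein secretagogin (5.78), completed the 12 largest. Because 1 was added before the log, these values understate the difference of genes near 0. Hephl1 and Mgam passed the filter on the mean only through the bulb-high libraries. Their means were 94.8 and 73.5 there, 14.0 and 11.1 in the middle and 0.451 and 0.150 in the bulb-low libraries. Omp overlaps Capn5 on the same strand, where reads could be shared.

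The mitral and tufted cell genes that the score did not use were higher in the bulb-high set in 8 of 8 compared, with a median log2 difference of 3.36. Tbx21 (chromosome 11, 97098071 to 97115331) stood at 319 to 576, median 447, against 0 to 3.69, median 1.96. The transcription factor Barhl2 stood at 76.5 to 125, median 87.8, against 0 to 4.51, median 1.16. The neuropeptide gene Nmb, neuromedin B, which overlaps Sec11a on the same strand, stood at 377 to 534 against 11.1 to 31.6. In none of the 8 did the sets overlap, where 17.4% of all genes were above without overlap. The size condition was passed by 7, against 3.89% of all genes. Lbhd2 had a difference of 4.38, Spp1, the secreted protein osteopontin, one of 2.35, Ntng1, the synaptic adhesion protein netrin-G1, one of 1.46, and Reln, the secreted glycoprotein reelin, one of 1.34. Slc17a6, the vesicular glutamate transporter of subcortical and bulb output neurons, differed least, at 513 to 759 against 335 to 444. Of the 2 other listed genes, Lhx5 had a mean under 10, at 12.2 to 51.5 against 0 to 1.09, and Lhx1 was not analysed here.

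The genes of bulb interneurons were higher in 21 of 22, with a median difference of 2.82. Of these, 20 did not overlap, against 17.4% of all genes above in this way. Th (chromosome 7, 142892752 to 142931128) stood at 1657 to 2339, median 1899, in the bulb-high libraries and at 20.9 to 93.9, median 58.7, in the bulb-low ones. Calb2, calretinin, a calcium-binding protein of granule and periglomerular cells, stood at 4919 to 8223, median 6294, against a mean of 343 ± 123 (SD, n = 6), median 333. Both genes separated the sets completely, by 5.26 and 4.26 on the log2 scale. Vipr2, a receptor for vasoactive intestinal peptide, differed by 4.92, Trh, thyrotropin-releasing hormone, by 4.81, and the zinc finger factors Sp8 and Sp9 by 4.41 and 3.35. Among the homeodomain factors that specify GABAergic neurons, Dlx1 differed by 3.12, Dlx2 by 2.78, Dlx5 by 2.60 and Dlx6 by 1.99, and Pbx3 differed by 3.55. Dlx6 and Dlx6os1 lie on opposite strands, and the strand setting of the counting is not known here. Etv1 was only 1.33-fold higher, and Six3 and Eya1 overlapped between the sets. Six3 was read at 0 to 3.48 in the bulb-high libraries and at 0 to 34.3 in the bulb-low ones.

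The enzymes and transporters of GABA were higher in 4 of 4, with no overlap, against 17.4% of all genes above in this way. Gad1, which makes GABA from glutamate (chromosome 2, 70553072 to 70602014), stood at 19135 to 25973, median 22907, against 5871 to 7790, median 7552. Gad2, the second enzyme form, was 1.88-fold higher and the vesicular transporter Slc32a1 2.05-fold. The difference was thus larger for Gad1 than for Gad2 in these means, a comparison without a test.

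Genes of migrating neuroblasts were higher, while those of dividing cells overlapped between the sets. Dcx, doublecortin, a microtubule protein of migrating neurons, stood at 5432 to 7585, median 6766, against 1663 to 1853, median 1787. Igfbpl1 stood at 317 to 532, median 442, against 0 to 99.0, median 34.1. Cd24a, a surface glycoprotein, differed by 2.12, and the transcription factors Sox4 and Sox11 by 1.65 and 1.07. These 5 of 12 listed genes did not overlap, against 17.4% of all genes above in this way. The proliferation gene Mki67 stood at 42.2 to 64.8 against 18.4 to 57.9 and Top2a, a topoisomerase of dividing cells, at 37.1 to 49.5 against 23.4 to 74.9. Ccnd2, Hmgb2, Cenpf and Rrm2 overlapped as well.

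Ensheathing glia genes were higher in 8 of 8, none overlapping, against 17.4% of all genes above in this way, with a median of 1.53. Fabp7, a brain fatty acid binding protein, stood at 3528 to 5266, median 4709, against 434 to 524, median 491. The serine protease gene Prss56 stood at 76.0 to 156 against 0 to 8.12. Ngfr, the p75 neurotrophin receptor, differed by 1.95, Matn4, an extracellular matrix protein, by 1.11, Mybpc1 by 0.97, the Wnt antagonist Frzb by 0.78 and Sox10, a factor of glial lineages that oligodendrocytes share, by 0.69. With Foxd3, 5 of the 8 passed the size condition, against 3.89% of all genes.

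Of the 10 genes listed for olfactory sensory axons, 3 were higher and 3 lower without overlap, against 17.4% and 18.6% of all genes. Omp (chromosome 7, 98143359 to 98145502) stood at 841 to 2033, median 1339, against 6.44 to 78.5, median 15.9. S100a5 and Stoml3, a stomatin-family protein of sensory neurons, were likewise separated, and Stoml3 stood at 283 to 477 against 1.23 to 49.6. The adenylyl cyclase Adcy3, the adhesion molecule Ncam2 and the channel subunit Cnga4 were lower in the bulb-high set without overlap, by -0.36, -0.61 and -0.46. Adcy3 stood at 1358 to 1506 against 1678 to 1901, a level far from 0 in the bulb-low libraries. Cnga2, Rtp1, Gng13 and Kirrel2 overlapped. The list's median was 0.68. Olfactory sensory neurons lie in the nose, and only their axons reach the bulb.

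**Figure D2:**
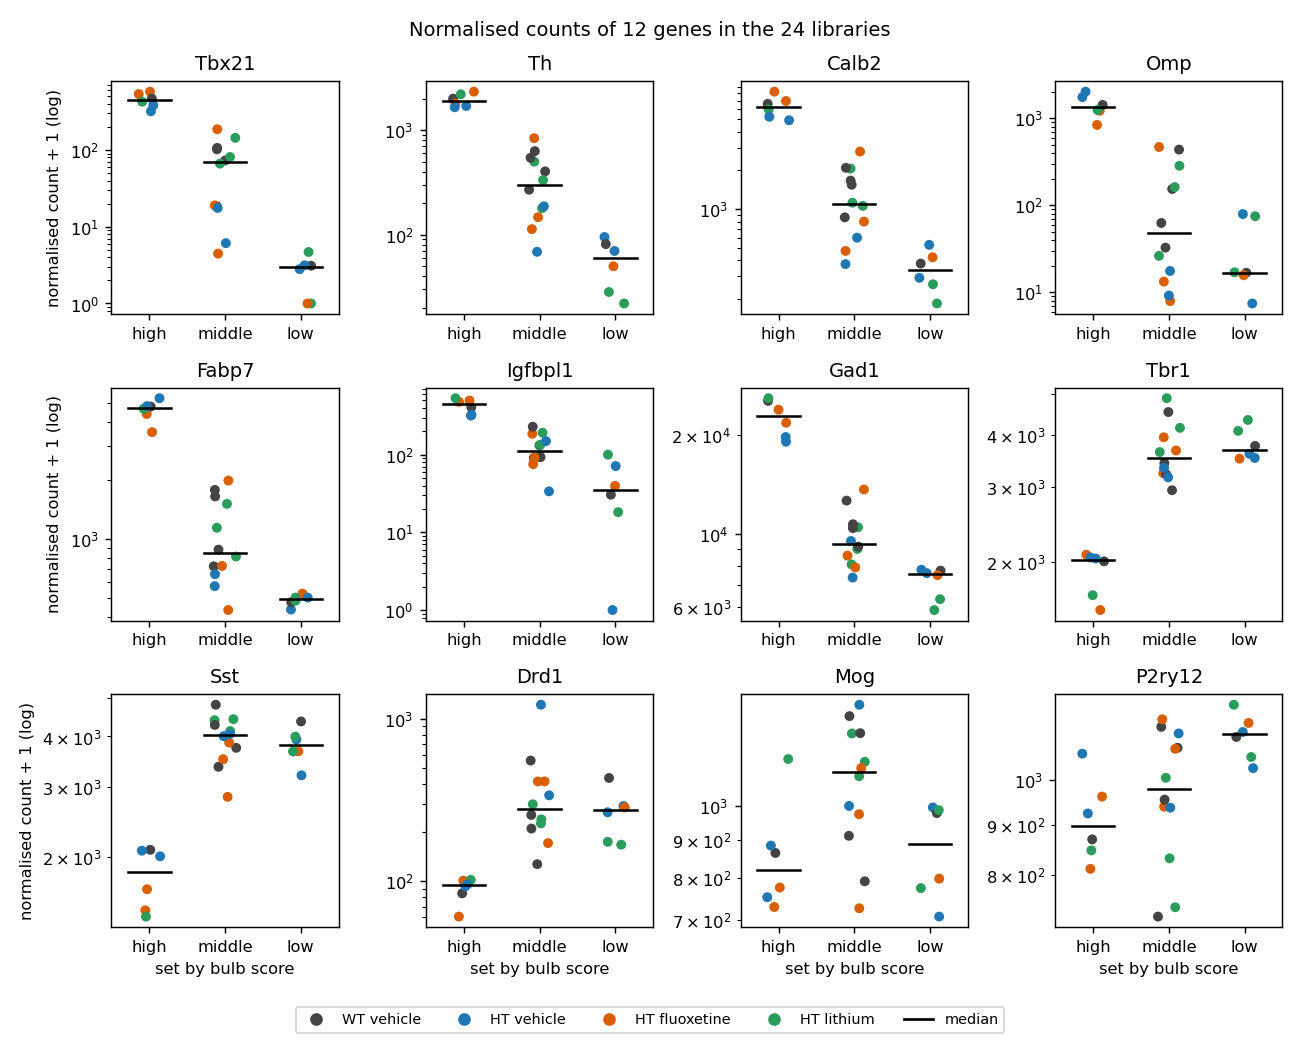
Normalised read count + 1 (log scale) of 12 genes in the bulb-high, middle and bulb-low libraries, each point a library, coloured by arm, with the median as a bar. Tbx21, Th, Calb2, Omp, Fabp7, Igfbpl1 and Gad1 are high in all 6 bulb-high libraries, Tbr1, Sst and Drd1 are lower there, and the points of Mog and P2ry12 overlap.

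Cortical excitatory neuron genes were lower in the bulb-high set in 16 of 22, with a median of -0.55, and the differences were small beside those of the bulb genes. Tbr1, a T-box factor of deep-layer neurons (chromosome 2, 61802930 to 61814114), stood at 1534 to 2075, median 2017, against 3507 to 4332, median 3680. Slc17a7, the main vesicular glutamate transporter of cortex, stood at 28907 to 34417, median 31882, against 47147 to 52373, median 49038. Both were lower in every bulb-high than in every bulb-low library, yet neither was near 0. Without overlap 11 of the 22 were lower, against 18.6% of all genes, and 4 passed the size condition, against 0.559%. Among these 4 were Tbr1 (-1.01), the deep-layer factor Fezf2 (-1.07) and Crym, a thyroid hormone binding protein (-1.15). Neurod2 and Neurod6, factors of excitatory neurons, differed by -0.95 and -0.98. Cux1 and Syt6 were higher without overlap, and Syt6, a synaptotagmin listed for deep-layer neurons, stood at 2244 to 3452 against 224 to 754. Syt6 overlaps Gm43066 and Cux1 overlaps A430110C17Rik on the same strand.

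Of 13 cortical interneuron genes, 4 were higher and 5 lower without overlap, against 17.4% and 18.6% of all genes, and the median was 0.0019. Lhx6, a factor of interneurons from the medial ganglionic eminence, stood at 132 to 237, median 195, against 421 to 522, median 432. The neuropeptide Sst, somatostatin, stood at 1424 to 2088, median 1839, against 3201 to 4359, median 3802, and Pvalb, parvalbumin, at 255 to 427, median 313, against 574 to 729, median 607. Vip and the cannabinoid receptor Cnr1 were also lower without overlap, by -0.50 and -0.70. Adarb2, an RNA-binding protein of caudal-derived interneurons, was 2.64-fold higher, Nos1, neuronal nitric oxide synthase, 2.18-fold, the serotonin receptor channel Htr3a 1.59-fold and Crh 1.57-fold. Npy, neuropeptide Y, had nearly equal means, 2002 ± 175 and 2004 ± 227 (SD, n = 6 each), and its sets overlapped.

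The striatal projection neuron list was lower in the bulb-high set for 10 of its 13 genes, where 8317 of all 16822 genes were lower. Without overlap 6 were lower and 1 higher, against 18.6% and 17.4% of all genes. The size condition was passed by 4 of the lower ones, against 0.559% of all genes. Drd1, the D1 dopamine receptor (chromosome 13, 54051183 to 54055705), stood at 59.7 to 101, median 93.4, against 167 to 432, median 275. Ppp1r1b (DARPP-32) differed by -1.06 and the sodium channel subunit Scn4b by -1.62. Penk, proenkephalin, was higher without overlap, at 2134 to 2907 against 782 to 1523, and Adora2a and Drd2, which mark the other class of striatal neuron, overlapped. In the middle set HT vehicle male 1 had the highest Drd1, 1220, and the highest Drd2, 1379. The summed level of the 13 genes ranged from 7314 to 8572 in the bulb-high libraries and from 9928 to 15362 in the bulb-low ones, and its part in the other differences was not tested.

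Apart from Drd1 and Scn4b, the 12 genes with the largest lower difference were led by Pkp1, the desmosomal protein plakophilin (-2.04), at 2.61 to 6.98 against 9.79 to 42.1. Npbwr1, a receptor for neuropeptides B and W, stood at 3.09 to 10.6 against 18.4 to 43.2, and Nxph3, a secreted neurexin ligand, at 109 to 247 against 392 to 871. The homeobox gene Sebox differed by -1.68, Tdo2, a tryptophan-degrading enzyme, by -1.49, Hcrtr1, an orexin receptor, by -1.43, Gprin3 by -1.42 and Tcte1 by -1.32. Gm10334 and Gm43108 completed the 12, at -1.43 and -1.33. Gm43108, which overlaps Dph5 on the same strand, was read at 0 in HT fluoxetine male 1, and without that library its difference was -0.57.

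**Figure D3:**
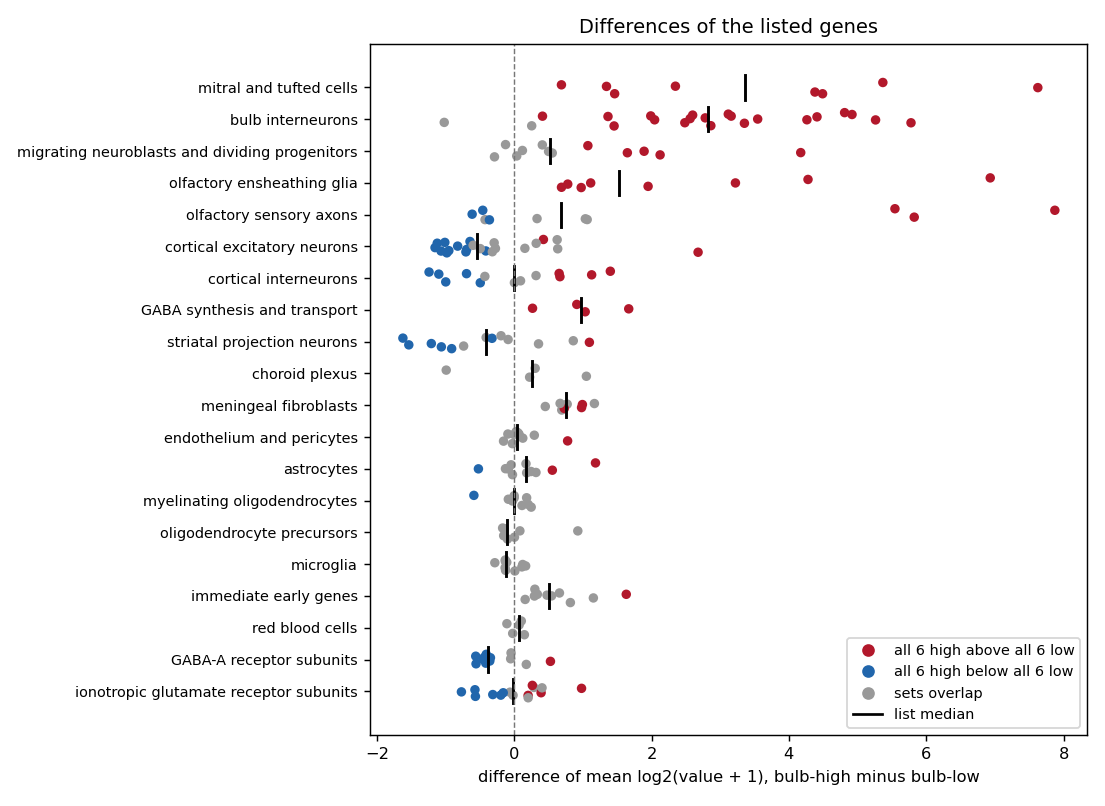
Difference of mean log2(value + 1), bulb-high minus bulb-low, for each listed gene (points) with the list median (black bars). Red points are genes whose 6 bulb-high libraries are all above the 6 bulb-low ones, blue all below, grey overlapping, and the mitral and tufted, interneuron and ensheathing glia lists lie to the right.

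Among the other cell types, the differences were smaller and the sets mostly overlapped. Over all genes, 17.4% were above and 18.6% below without overlap. Astrocyte genes had a median of 0.17, with Gfap, an intermediate filament protein, 2.27-fold higher at 5113 to 6838 against 2325 to 3176. The water channel Aqp4 was 1.47-fold higher and the glutamate transporter Slc1a2 1.44-fold lower, both without overlap. Myelin genes had a median of -0.001, and only Opalin of the 9 did not overlap, at 170 to 236 against 274 to 351. None of 10 microglial and none of 7 oligodendrocyte precursor genes separated the sets. Among 10 endothelial and pericyte genes only Vtn, vitronectin, did, being 1.71-fold higher. Red blood cell genes had a median of 0.07 with overlap in 5 of 5.

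Meningeal fibroblast genes were higher in 9 of 9, with a median of 0.76, and 3 did not overlap, against 17.4% of all genes above in this way. Aldh1a2, which makes retinoic acid, stood at 387 to 486 against 171 to 270, Dcn, decorin, at 438 to 649 against 225 to 406 and Slc6a13, a GABA and taurine transporter, at 393 to 606 against 247 to 366. Col1a1, a collagen chain, stood at 4227 in HT fluoxetine female 1 and at 370 to 832 in the other 5 bulb-high libraries. The summed level of the 9 genes was 5529 to 14156 in the bulb-high libraries and 4210 to 6431 in the bulb-low ones. The part of meningeal cells in the other differences was not tested. Choroid plexus genes overlapped in 4 of 4 compared, and Ttr, transthyretin, reached 3407 in the bulb-low library HT vehicle female 1.

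Immediate early genes, which neuronal activity induces, had higher means in 10 of 10, but the libraries overlapped for all but Fosb. Of all genes, 17.4% were above without overlap. Fosb stood at 472 to 1968, median 777, in the bulb-high libraries and at 206 to 429, median 274, in the bulb-low ones. Fos stood at 613 to 2894, median 1917, against 316 to 1286, median 743. The difference was uneven across arms. The list median was -0.11 in HT fluoxetine, 0.54 in HT lithium, 0.49 in HT vehicle and 2.06 in WT vehicle, where 1 library stands on each side. In HT fluoxetine 6 of the 10 genes were lower in the bulb-high libraries, among them Arc (-0.60) and Dusp1 (-0.40), while Fos differed by 0.23 there and by 3.19 in WT vehicle.

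Of 12 GABA-A receptor subunits, 8 were lower and 1 higher without overlap, where 18.6% of all genes were lower and 17.4% higher in this way. The lower ones included Gabra4 (-0.56) and Gabra3 (-0.36). Gabrd, an extrasynaptic subunit, stood at 1370 to 1594, median 1524, against 1900 to 2134, median 1980. Gabra5, also found outside synapses, was the higher one, at 1937 to 2558 against 1410 to 1728. Of 15 ionotropic glutamate receptor subunits, 4 were higher and 6 lower without overlap, with a median of -0.02, and the 2 families were not tested against each other. Grin2d was 1.97-fold higher, Grin2c 1.31-fold, Grik2 1.20-fold and Gria4 1.15-fold. Grik4, Gria3, Grin2a, Grin2b, Grik5 and Grin1 were lower without overlap, by 1.71-fold for Grik4 and 1.12-fold for Grin1. In bulk RNA, fewer cells of a type and less RNA per cell cannot be told apart, which holds for every level given here.

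Dyrk1a, the gene that carries the allele, overlapped between the sets, at 2328 ± 142 in the bulb-high and 2407 ± 110 in the bulb-low libraries (SD, n = 6 each). Its RNA level does not check the genotype labels, since the labelled allele need not lower it.

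**Figure D4:**
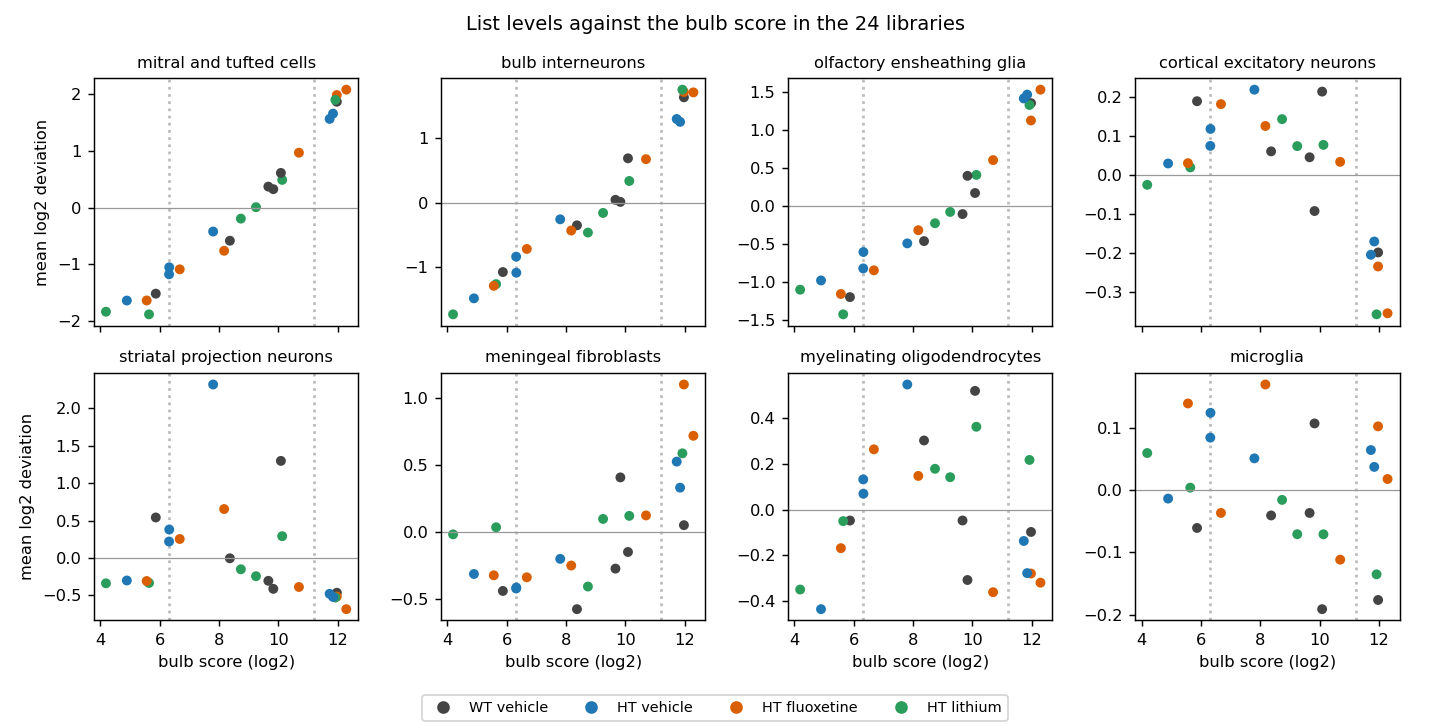
Mean log2 deviation of 8 gene lists from their mean over all libraries, against the bulb score, for the 24 libraries coloured by arm, with dotted lines between the sets. The mitral and tufted, interneuron and ensheathing glia lists climb through the middle libraries, the cortical excitatory list is lowest in the 6 libraries on the right, and myelin and microglial lists show no such order.

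In the 12 middle libraries most of the listed mitral, tufted and interneuron genes rose with the score. The contrast did not use these libraries, but the same score set them apart, and the same 3 genes define it. The filter on the mean used all 24 libraries, bulb-high ones included, so the slopes are no independent repeat of the contrast. Each gene was fitted with limma on log2(value + 1) against the score, so that a slope of 1 means a doubling of the gene for each doubling of the score genes. Of 16822 genes, 229 had a positive slope at a Benjamini-Hochberg adjusted p under 0.05 (1.36%) and 22 a negative one (0.131%). At an unadjusted p under 0.05 there were 1720. The quasi-likelihood test of edgeR on recovered reads called 248 and 26. Leaving out HT fluoxetine female 3, the library with the highest score of the 12, lowered the counts to 106 and 7. Leaving out another library lowered the negative count to 6 for WT vehicle female 1, to 11 for HT lithium female 1 or HT fluoxetine female 2, and to 12 for WT vehicle male 2, male 3 or female 3. Within batch P40_L1, with 8 libraries, 57 and 1 were called.

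The 8 genes with the smallest p among the positive slopes were Vipr2, Calb2, Sp8, Ms4a15, Frmd7, Fam19a3, Shisa3 and Tbx21. Vipr2 rose by 0.90 ± 0.04 (log2 per unit of score ± SE, limma adjusted p = 1.01e-08), from 18.4 in the lowest middle library to 297 in the highest. Calb2 rose by 0.65 ± 0.03 (limma adjusted p = 1.01e-08), from 372 to 2806. Ms4a15 rose by 1.46 ± 0.09 and Tbx21 by 1.26 ± 0.09 (limma adjusted p = 1.2e-07 and 6e-07). All 8 were also called within P40_L1, where Vipr2 had a slope of 0.94 and Tbx21 one of 1.21. Fam19a3, a secreted chemokine-like protein, and Shisa3, an inhibitor of Wnt and FGF receptors, were at 144 to 234 and at 717 to 1117 in the bulb-high libraries.

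Most of the 229 genes with a positive slope belonged to none of the gene lists, and none of the 22 with a negative slope was listed. A listed gene is said to rise here if its positive slope was called, which held for 1.36% of all genes tested. Of the mitral and tufted genes 7 of 8 rose with the score, and Reln, at a slope of 0.16 ± 0.04, missed the threshold (limma adjusted p = 0.0519). Of the interneuron genes 16 of 22 rose, among them Th (0.76 ± 0.06), Scgn (1.05 ± 0.09), Dlx1 (0.39 ± 0.03) and Meis2 (0.12 ± 0.03). Dcx, Sox4, Cd24a and Igfbpl1 rose among 12 neuroblast and progenitor genes, and Foxd3, Prss56 and Fabp7 among 8 ensheathing glia genes. Omp, S100a5 and Stoml3 rose among 10 sensory axon genes, with slopes of 1.38, 1.90 and 1.54. Adarb2, Gad1 and the endothelial junction gene Cldn5 were the 3 called genes of the other lists, with slopes of 0.14, 0.17 and 0.12. Within P40_L1, 57 of all 16822 genes had a called positive slope. Beside that, the called genes numbered 12 of 22 for interneurons and 1 of 8 for mitral and tufted cells. The median slopes of these lists were 0.32 and 0.38, against 0.34 and 0.41 in all 12 middle libraries. In that batch alone, 0 of the neuroblast genes and 1 gene each of the ensheathing glia, sensory axon and GABA lists were called.

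Genes of cortical excitatory neurons did not pass in the middle libraries. None of 22 cortical excitatory genes was called, 4 of the 22 slopes were above 0, and the median slope was -0.04. Fezf2 had a slope of -0.01 ± 0.03 (limma adjusted p = 0.942) and Tbr1 one of -0.001 ± 0.04 (limma adjusted p = 0.997). Syt6, higher in the bulb-high set, had a slope of 0.24 ± 0.06 (limma adjusted p = 0.0837). The striatal, meningeal, astrocyte, myelin, microglial, immediate early, GABA-A and glutamate receptor lists had no called gene. Of all genes tested, 48.9% had a slope above 0. In these lists it was above 0 for 9 of 9 meningeal, 10 of 10 immediate early, 8 of 15 glutamate receptor, 4 of 11 astrocyte, 2 of 12 GABA-A, 2 of 10 microglial, 1 of 13 striatal and 0 of 9 myelin genes.

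The negative slopes were shallow. Pde1a, a calmodulin-dependent phosphodiesterase, fell by 0.10 ± 0.02 per unit of score (limma adjusted p = 0.00709), and ranged from 5008 to 7340 across the middle libraries. Arhgap25, a GTPase-activating protein, fell by 0.21 ± 0.04 and Gpr155 by 0.12 ± 0.02, with the same adjusted p. Vwa3a, the latrophilin Adgrl2, Gm19410, the BH3-only gene Hrk and Syt2, a synaptotagmin of fast-releasing synapses, were the others of the 8 smallest p. None of the 8 passed within P40_L1, where their slopes were negative as well.

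The genes that stood out in the outer libraries and those called in the middle ones overlapped in part. Of the 655 genes higher in the bulb-high set, 194 (29.6%) had a called positive slope, and these are 84.7% of the 229. Of the 94 lower genes, 5 (5.32%) had a called negative slope, 22.7% of the 22. No gene was called in opposite directions. The slope was above 0 for 639 (97.6%) of the 655, against 48.9% of all genes, and below 0 for 83 (88.3%) of the 94. The score that defines both the sets and the slope comes from the same 3 genes, so both readings share that choice.

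**Figure D5:**
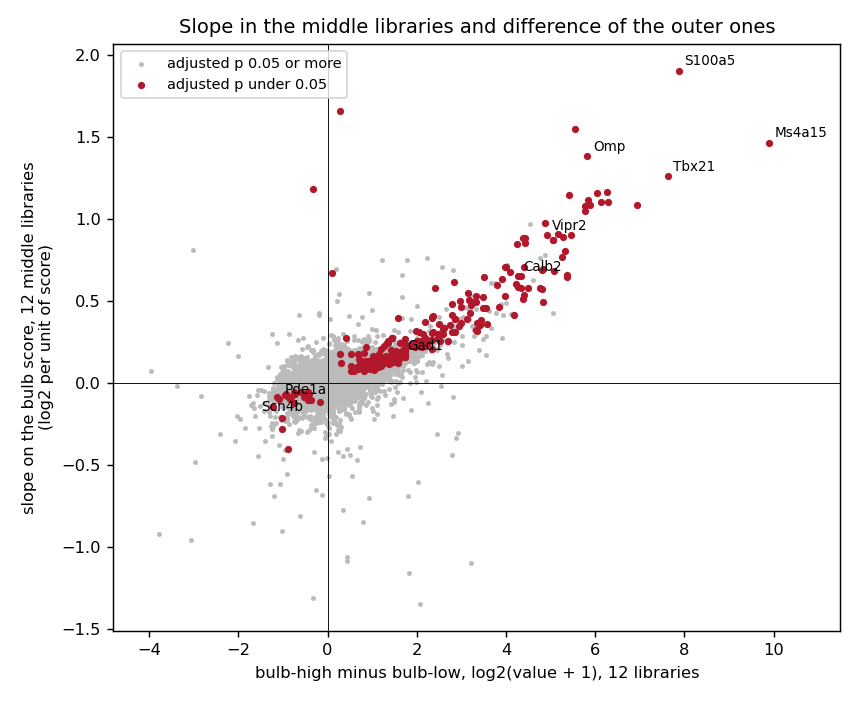
Slope of each gene on the bulb score in the 12 middle libraries (log2 per unit of score) against its difference between the 6 bulb-high and 6 bulb-low libraries, with genes called by limma in red. Called genes with a positive slope lie mostly at large positive differences, up to Ms4a15 at 9.90, and the called negative slopes sit close to 0.

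The score itself did not differ detectably between the labelled arms or sexes. It was 8.15 ± 2.96 in HT vehicle and 9.30 ± 2.04 in WT vehicle (SD, n = 6 each), a difference of -1.15 (two-sided exact permutation test, p = 0.4545, adjusted over 4 comparisons 0.767), and all 12 of these libraries are from P40_L1. Leaving out 1 library at a time moved this difference between -1.88 and -0.495. HT fluoxetine, at 9.23 ± 2.83, was 1.08 above HT vehicle (exact permutation p = 0.5152, adjusted 0.767), and 0.78 above it within P40_L1 (exact permutation p = 0.6147). With 1 library left out, the difference of fluoxetine from vehicle over both batches ranged from 0.425 to 1.81. HT lithium, at 8.31 ± 2.88, was 0.16 above HT vehicle (exact permutation p = 0.9091), and lithium and batch cannot be told apart because all its libraries are in P40_L2. Males scored 8.45 ± 2.63 and females 9.05 ± 2.60 (n = 12 each, permutation p = 0.5752, adjusted 0.767), and within P40_L1 males were 1.08 lower (permutation p = 0.3961). With 1 library left out, the difference of males minus females ranged from -1.05 to -0.284. In each arm the score spanned most of its range, from 4.90 to 11.84 in HT vehicle and from 5.87 to 11.97 in WT vehicle.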

How the data were processed

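Bulk polyadenylated RNA was sequenced in 24 libraries. The authors deposited a table of normalised signal for 18240 genes, which are read counts divided by a size factor. The build GRCm38 and the tools Salmon 0.11.2, DESeq2 1.19.11 and R 3.6.0 are named, without roles, per the submitters' processing notes. Within each library 100% of values came out as whole multiples of the value of 1 read (tolerance 0.01), which gave 24133344 to 35940460 recovered reads. GENCODE M21 matched 18227 identifiers, and RefSeq gave promoters.

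The bulb score chose the libraries, and genes with a mean of at least 10 over all 24 libraries, bulb-high ones included, were compared. The slope on the score was fitted with limma 3.58.1 in R 4.3.3 (intensity trend, Benjamini-Hochberg over 16822 genes, the 3 score genes left out), and edgeR 4.0.16 and DESeq2 1.42.0 were run on recovered reads as alternatives. Scores were compared by exact permutation over 924 arrangements, or 100000 resamples for the sexes (Python 3.11.15, scipy 1.17.1). The scripts were tested on simulated data. Named genes are the listed genes, the 12 with the largest difference in each direction among those without overlap, and the 8 with the smallest slope p in each direction. The libraries, lists and tests were chosen with earlier results of these data known. Other pseudocounts, filters, set sizes, rankings, scalings, covariates and left-out libraries were tried, and a restriction to batch P40_L1 was added after the data were seen. Some listed genes are counted with their list and are not reported here by name. No 2 libraries agreed within sampling noise (smallest chi-square per gene 4.57).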

Additional observations from a re-analysis of the deposited data

Results flagged for a closer look

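Of 98 groups of 6 libraries checked, 8 held a library far from the others, and chance gives about 1 in 20. HT fluoxetine male 1, the library with the highest bulb score, was the low one in 5 of them. Among the bulb-high libraries its mean log2 deviation of the striatal list was -0.6831, against -0.5276 to -0.4637 in the other 5, and that of the GABA-A receptor list was -0.3079, against -0.1401 to -0.07985. Its log2(value + 1) of Drd1 was 5.924, against 6.399 to 6.676, that of Gprin3 was 6.7, against 7.406 to 7.737, and that of Gm43108 was 0, against 4.41 to 4.63. HT vehicle female 1 was the high one in the other 3, all in the bulb-low set. Its choroid plexus list stood at 3.02, against -1.683 to -0.04476. Its log2(value + 1) of Hephl1 was 1.89 and that of Mgam 0.9278, where the other 5 libraries were at 0. Its normalised count of Mgam, 0.902, is the value of 1 read in this library, and that of Hephl1 was 2.71. With the other 5 at 0, any read flags a library, so the rate of 1 in 20 does not hold for these genes. HT vehicle female 1 is also the library at the near tie of the lower edge.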

How the results depend on the processing

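The counts of higher genes moved less than those of lower genes. With a mean of at least 50 the counts were 427 higher and 59 lower, with 8 libraries a side 398 and 7, with 4 a side 258 lower, and with a pseudocount of 8 there were 53 lower. Leaving out 1 library at a time gave 638 to 696 higher and 64 to 127 lower. Rankings by pairs of the score genes, TMM scaling (662 and 92), removal of arm means and batch P40_L1 alone (671 and 87) stayed within 1.5 times. For the slope in the middle libraries DESeq2 called 356 positive and 84 negative genes, batch as a term left 11 negative, and P40_L1 alone left 57 and 1. Leaving out 1 library gave 106 to 237 positive and 6 to 19 negative. With arm as a term 210 and 28 were called, of which 151 and 3 were among those without it. Whether replicate numbers pair the libraries was not settled. Same-numbered libraries had a median correlation of -0.018 over 84 pairs, from -0.695 to 0.724, with 31 over 0.1. Libraries with different numbers were not compared in this way. With the replicate block 174 positive and 25 negative slopes were called, and with numbers as pairs the score differences were -1.15, 1.08 and 0.16 for HT vehicle, fluoxetine and lithium (exact permutation p = 0.375, 0.656 and 0.906). The lithium difference turned sign without Eomes in the score (-0.463), without HT lithium male 1 (-0.562), female 1 (-0.204) or male 2 (-0.0276), and without HT vehicle female 3 (-0.206), female 1 (-0.207) or male 2 (-0.492). Left-out libraries gave -0.562 to 0.984. The causes were not tested. With 6 libraries a side, genes near the floor of a few reads limit the largest differences.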

Other observations

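Genes chosen after their values were seen are given here. Xist, the RNA that coats the inactive X chromosome, was read at 38105, 39832 and 37547 in the 3 female bulb-high libraries. It was read at 22450 and 21864 in the 2 female bulb-low libraries and at 21340 to 28537 in the 7 female middle libraries. The highest of these 7, 28537, was HT fluoxetine female 3, which also has the highest score of the middle set. All 3 female bulb-high libraries are from P40_L1, in which the other 5 female libraries stood at 21357 to 25334.

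Among the score genes the ratio of Cdhr1 to Doc2g was 1.21 to 1.38 in the bulb-high libraries and 0.517 to 3.08 in the bulb-low ones. The lowest ratio was in HT lithium female 2 and the highest of the bulb-low set in HT vehicle female 1. Gm15429, Gm18537 and Gm13509 had called positive slopes of 1.66, 1.18 and 0.67 in the middle libraries (limma adjusted p = 0.0262, 0.00337 and 0.0475), while their differences between bulb-high and bulb-low were 0.27, -0.32 and 0.10. They were read at 0 in 3, 2 and 1 of the 12 middle libraries.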
